A study of Homo sapiens with 4 samples.

Results

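The matrix metalloproteinases (MMPs) and the tissue inhibitors of metalloproteinases (TIMPs) were followed in PC3 cells, an established line of human prostate cancer. The 10 genes were picked by name, with earlier results of these data known: the collagenases MMP1 and MMP13, the stromelysins MMP3 and MMP10, the matrilysin MMP7, the gelatinase MMP9, the membrane-type enzyme MMP14 and the inhibitors TIMP1, TIMP2 and TIMP3. They are 10 of the 43622 genes of the deposited expression table.

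RNA-seq was done on PC3 cells and on PC3 cells in which the tumor suppressor p14ARF was silenced (PC3-shp14ARF), to ask how far the transcriptional effect of MLN4924 rests on p14ARF. MLN4924 blocks NEDDylation, the attachment of the ubiquitin-like protein NEDD8, and with it the cullin-RING ubiquitin ligases. The 4 conditions were PC3 with the vehicle DMSO (Ctrl), PC3 with 1 µM MLN4924 (MLN), PC3-shp14ARF with DMSO (shARF) and PC3-shp14ARF with 1 µM MLN4924 (Both), all collected on day 3, with 3 libraries each. The libraries carry the numbers of the deposited columns, which are 1, 2 and 3 for Ctrl, 1, 2 and 5 for MLN, 1, 3 and 5 for shARF and 2, 3 and 4 for Both. The short hairpin RNA (shRNA) was brought in by a retrovirus with hygromycin selection, and no control shRNA is named for the Ctrl and MLN cells. The hairpin and the infection with selection therefore cannot be told apart in any comparison of PC3-shp14ARF with PC3 cells. Statements below on what the shRNA raised, lowered or gave mean the difference between these kinds of cells. Nothing says whether the 3 libraries of a condition came from separate cultures, so each p-value measures the spread between these libraries, which may be technical.

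MMPs are zinc proteases that cut collagens, proteoglycans and other proteins of the extracellular matrix and of the cell surface. Most are secreted as inactive proenzymes and are switched on by removal of the propeptide, whereas MMP14 sits in the plasma membrane. TIMPs bind the active site of MMPs and block it, and TIMP2 also takes part in the activation of pro-MMP2 by MMP14. In tumors these enzymes are known for their part in invasion and in the remodelling of the tissue around the cancer cells. Several MMP genes, among them MMP1 and MMP3, are textbook targets of AP-1, the transcription factor made of FOS and JUN proteins.

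Of the 10 genes, 5 lie in 1 cluster on chromosome 11 (GRCh38), in the order MMP7 (102520508-102530750), MMP10 (102770502-102780628), MMP1 (102789401-102798160), MMP3 (102835801-102843609) and MMP13 (102942995-102955732), all on the minus strand. The genes MMP20, MMP27, MMP8 and MMP12 lie between them in the same orientation. The other 5 genes are apart from one another: MMP9 on chromosome 20 (46008908-46016561, plus strand), MMP14 on chromosome 14 (22836560-22849041, plus strand), TIMP1 on the X chromosome (47582408-47586789, plus strand), TIMP2 on chromosome 17 (78852977-78925387, minus strand) and TIMP3 on chromosome 22 (32801705-32863041, plus strand).

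Promoters of MMP7 and MMP10 are shown because they are the cluster genes that the promoter table held, because both genes were higher after MLN4924 and because both sequences hold the same pair of motifs at nearly the same distance from the start. The 250 bases before the RefSeq start (GRCh38.p14, gene strand, 5′ to 3′) are chr11:102530748-102530997 for MMP7 and chr11:102780629-102780878 for MMP10, both on the minus strand, with the AP-1-type motif TGANTCA and the TATA box motif TATAAA in capitals.
MMP7: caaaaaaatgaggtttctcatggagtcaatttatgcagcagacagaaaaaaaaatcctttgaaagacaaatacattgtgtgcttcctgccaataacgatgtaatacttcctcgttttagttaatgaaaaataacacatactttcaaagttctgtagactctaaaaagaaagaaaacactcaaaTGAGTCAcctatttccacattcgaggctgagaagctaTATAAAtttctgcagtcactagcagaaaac
MMP10: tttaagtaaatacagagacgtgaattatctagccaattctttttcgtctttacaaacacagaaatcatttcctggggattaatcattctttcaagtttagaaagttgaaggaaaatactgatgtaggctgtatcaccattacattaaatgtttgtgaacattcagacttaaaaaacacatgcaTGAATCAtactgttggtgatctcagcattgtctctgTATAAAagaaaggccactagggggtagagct
TGANTCA began 67 bases before the start in both genes, as TGAGTCA in MMP7 and as TGAATCA in MMP10. TATAAA began 30 bases before the start in MMP7 and 31 bases before it in MMP10. Both motifs were searched on both strands, and of 35116 RefSeq promoters of the same length 6.57% held TGANTCA and 10.7% held TATAAA. The promoters of MMP14, TIMP1 and TIMP3 held neither set of letters, and their GC content was 56.8%, 64.8% and 72.4%, against 33.6% for MMP7 and 34.4% for MMP10. The promoter table matched 5 of the 10 genes, and MMP1, MMP3, MMP9, MMP13 and TIMP2 were not among them. A match describes letters in this window and is neither a binding site nor a cause.

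Values are TPM, transcript abundances scaled to gene length and to the sum of each library. The depth of a library cannot be read from them, and a lower TPM does not tell fewer expressing cells from less RNA per cell. Replicates of a condition correlated with r between 0.9745 and 0.9801 on the log2 scale. CDKN2A, the gene that encodes p14ARF and also p16INK4a, which the table does not separate, had 177 to 190 TPM in Ctrl, 100 to 133 in MLN, 58.2 to 60.9 in shARF and 41.2 to 54.0 in Both. It was lower in shARF than in Ctrl by 1.63 on the log2 scale (SE 0.035, adjusted p = 2.24e-05), as the label of the shRNA says, and lower in MLN than in Ctrl by 0.65 (SE 0.11, adjusted p = 0.00235). All 5 epithelial markers (KRT8, KRT18, KRT19, EPCAM and CDH1) were above 1 TPM in every condition, with sums of 907 to 1004 TPM in Ctrl, 439 to 504 in MLN, 1138 to 1280 in shARF and 433 to 450 in Both. Of markers of other cells, the B cell gene MS4A1 was at 0 in all libraries, the T cell gene CD3E and the leukocyte gene PTPRC had at most 0.322 TPM and the endothelial genes VWF and CDH5 at most 0.327 TPM. The lists of other cells still moved with the conditions. In Ctrl, MLN, shARF and Both, 7 leukocyte genes summed to 211 to 266, 444 to 612, 115 to 144.5 and 309 to 352 TPM, of which CD68 had means of 187, 545, 84.6 and 328 TPM, whereas LYZ went the other way with the drug, with 43.6, 5.99, 44.04 and 6.30 TPM. The 4 endothelial genes summed to 113 to 123, 14.97 to 20.1, 193 to 194 and 13.7 to 16.6 TPM, of which KDR had means of 105, 15.9, 192 and 14.9 TPM, whereas PECAM1 was lower in shARF than in Ctrl too, with 11.7, 0.579, 1.91 and 0.173 TPM. The 6 fibroblast genes summed to 22.5 to 25.7, 25.5 to 27.2, 60.1 to 71.0 and 16.2 to 17.6 TPM, with DCN at most 0.126 TPM. COL1A2 had means of 6.73, 1.47, 54.5 and 4.26 TPM, and COL3A1 rose from 0.525 in Ctrl to 5.28 in shARF. PDGFRA went the other way, from 8.66 in Ctrl to 1.29 in shARF, as did COL1A1, from 7.27 to 4.04. The part of these genes in the results below was not tested.

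Each comparison was tested on log2(TPM + 0.1) with limma, with Benjamini-Hochberg adjustment over the 19932 genes whose average reached 0.1 TPM, and adjusted p-values below 0.05 were called. All fold changes below are on this scale, which understates changes of low genes. Of the 10 genes, 9 passed the filter, and the same 9 would have passed on the Ctrl libraries alone. TIMP3 did not pass, at 0.0579 TPM on average.

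**Figure D1:**
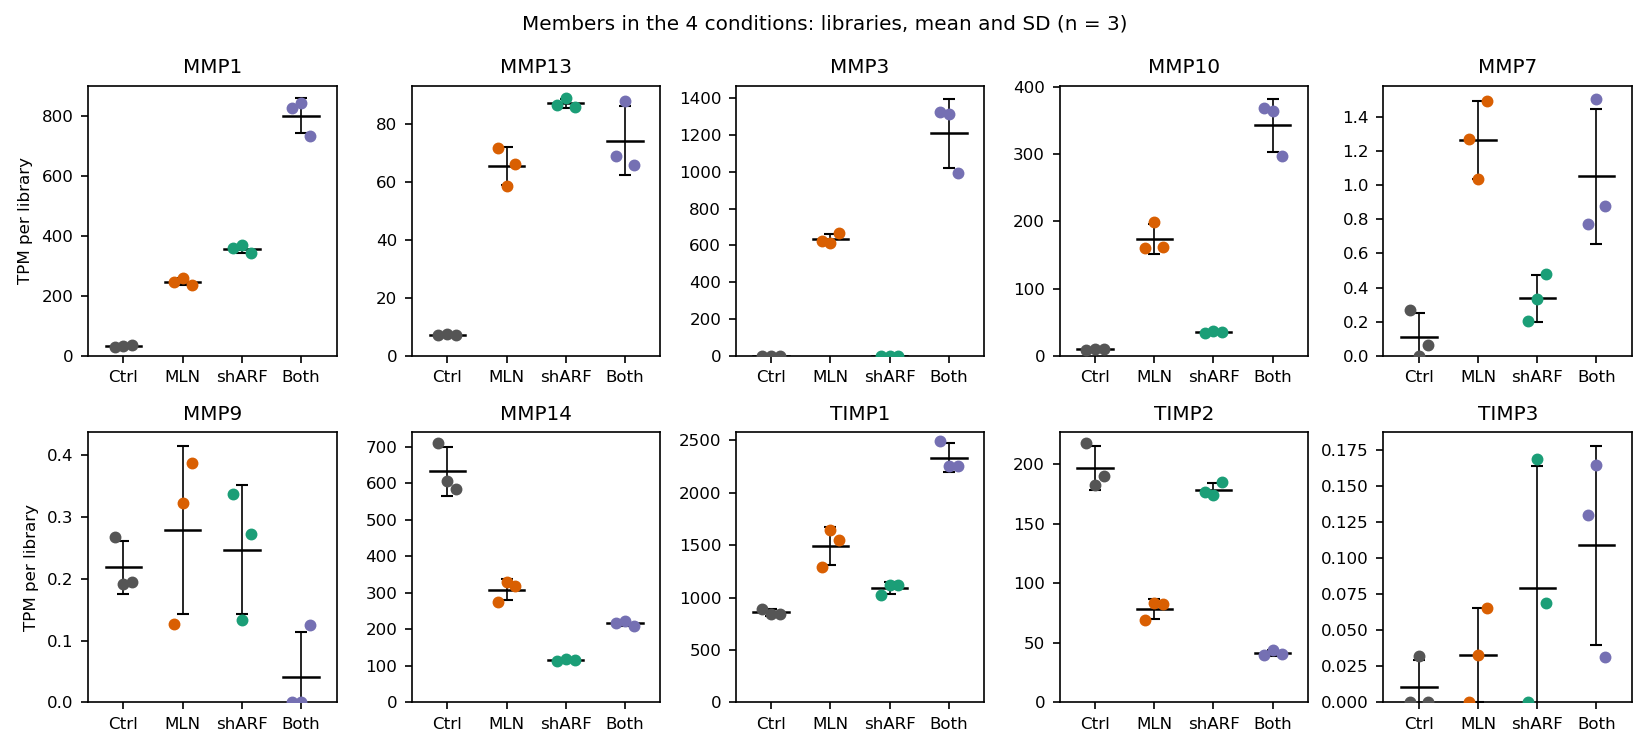
Level of each of the 10 genes (vertical axes, TPM per library, each with its own scale starting at 0) in the 4 conditions, with points for libraries, a bar for the mean and whiskers for the SD (n = 3, whiskers end at 0 where they would pass below it). MMP1, MMP3, MMP10 and TIMP1 are highest in Both, MMP14 is lowest in shARF and TIMP2 is lowest in Both, whereas MMP7, MMP9 and TIMP3 have at most 1.504 TPM.

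MLN4924 raised the collagenases, the stromelysins and MMP7 in PC3 cells, raised TIMP1, and lowered MMP14 and TIMP2. Of the 9 genes tested in MLN vs Ctrl, 6 were higher, 2 were lower and 1, MMP9, was not called. Of all genes tested, 32.2% were higher and 29.4% were lower. Beyond a log2 fold change of 2 in either direction, the second cutoff used by the study, were 5 of the 9, against 9.43% of all genes. The median log2 fold change of the 9 was 2.88, and that of all genes was 0.05.

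In PC3-shp14ARF cells the same comparison, Both vs shARF, gave 6 genes higher, 2 lower and 1 not called, against 28.3% of all genes higher and 32.8% lower. MMP1, MMP3, MMP7, MMP10, MMP14 and TIMP1 were higher, MMP9 and TIMP2 were lower, and MMP13 was not called. Beyond 2 were 3 of the 9, against 9.19% of all genes. The medians were 1.10 for the 9 and −0.04 for all genes. MLN vs Ctrl and Both vs shARF share no library.

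Without the drug, MMP1, MMP10, MMP13 and TIMP1 were higher and MMP14 was lower in PC3-shp14ARF than in PC3 cells. In shARF vs Ctrl, 4 of the 9 were higher, 1 was lower and 4 were not called, against 21.0% of all genes higher and 20.4% lower. Beyond 2 were 3 of the 9, against 3.19% of all genes. The medians were 0.44 and 0.00. With the drug present, in Both vs MLN, 4 were higher (MMP1, MMP3, MMP10 and TIMP1), 2 were lower (MMP14 and TIMP2) and 3 were not called, against 11.8% of all genes higher and 20.6% lower. None of the 9 was beyond 2 there, against 2.41% of all genes, and the medians were 0.17 and −0.08. The comparisons shARF vs Ctrl and MLN vs Ctrl share the Ctrl libraries, and Both vs MLN shares libraries with MLN vs Ctrl and with Both vs shARF.

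The response to MLN4924 differed between PC3 and PC3-shp14ARF cells for 6 of the 9 genes. This difference, Both vs shARF minus MLN vs Ctrl, was tested as an interaction with all 12 libraries in the fit. It was higher than 0 for MMP3 and MMP14 and lower than 0 for MMP1, MMP10, MMP13 and TIMP2. Of all genes, 11.2% were called with a higher and 17.1% with a lower response in PC3-shp14ARF cells. Under another scaling of the libraries, by the median of ratios, the median log2 fold change of all genes in Both vs MLN moved from −0.08 to 0.003, and the share of higher genes among all called rose from 36.4% to 51.4% there and from 39.5% to 53.5% in the interaction. Under that scaling no call of the 9 genes was lost in any comparison, and TIMP1 gained one in the interaction.

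**Figure D2:**
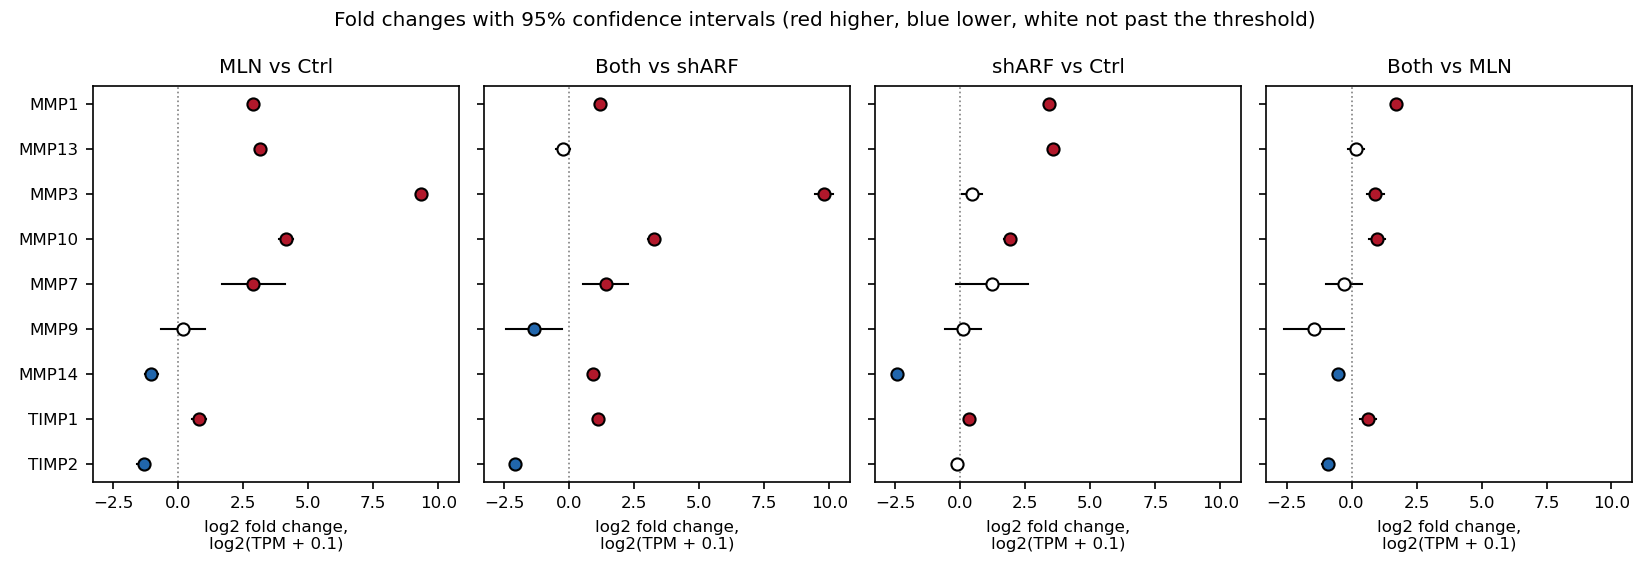
Log2 fold change of the 9 genes tested (horizontal axes, log2(TPM + 0.1) scale) in 4 comparisons, with 95% confidence intervals of limma, where red points are higher, blue points are lower and white points are not called. MMP3 lies near 9.32 in MLN vs Ctrl and near 9.80 in Both vs shARF but close to 0 in shARF vs Ctrl, while MMP1 and MMP13 lie to the right of 2 in both comparisons with Ctrl.

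The collagenases MMP1 and MMP13 cut the triple helix of fibrillar collagens, and both were raised by MLN4924 and by the shRNA. MMP1 had 31.0, 34.2 and 35.2 TPM in the Ctrl libraries, 246, 258 and 236 in MLN, 358, 370 and 343 in shARF and 825, 841 and 734 in Both. The order was Ctrl, MLN, shARF, Both, with no overlap between any 2 conditions. MLN4924 raised MMP1 by a log2 fold change of 2.88 in PC3 cells (SE 0.065, 95% interval 2.72 to 3.04, 7.35-fold, adjusted p = 2.47e-06) and by 1.16 in PC3-shp14ARF cells (SE 0.068, adjusted p = 3.72e-05). The shRNA raised it by 3.41 without the drug (SE 0.059, adjusted p = 1.40e-05) and by 1.70 with it (SE 0.077, adjusted p = 2.81e-04). The response to the drug was smaller in PC3-shp14ARF cells by 1.72 on the log2 scale (SE 0.098, adjusted p = 3.42e-07).

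MMP13 had 7.11, 7.60 and 7.18 TPM in Ctrl, 71.5, 58.5 and 66.1 in MLN, 86.3, 88.8 and 85.6 in shARF and 68.9, 87.6 and 65.7 in Both. All 9 libraries with the drug, the shRNA or both were above the 3 Ctrl libraries, and the Both libraries overlapped those of MLN and of shARF. MMP13 rose by 3.14 with MLN4924 in PC3 cells (SE 0.084, 8.82-fold, adjusted p = 3.81e-06) and by 3.56 with the shRNA (SE 0.036, adjusted p = 7.88e-06). In cells with the shRNA the drug gave a difference of −0.24 (95% interval −0.51 to 0.03, adjusted p = 0.106), which was not called. In cells with the drug the shRNA gave 0.17 (95% interval −0.15 to 0.49, adjusted p = 0.365). The interaction of −3.38 (SE 0.14, adjusted p = 2.34e-08) was the largest in size among the 9 genes. Without Both replicate 3, the library with 87.6 TPM, Both vs shARF was −0.37 and was called (adjusted p = 0.00139).

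The stromelysins MMP3 and MMP10 degrade proteoglycans and other matrix proteins and can activate other MMPs, and they answered MLN4924 in both kinds of cells. MMP3 had 0.992, 0.877 and 0.816 TPM in Ctrl and 1.15, 1.44 and 1.16 in shARF, but 623, 614 and 666 in MLN and 1323, 1313 and 995 in Both. Libraries without the drug had at most 1.44 TPM and libraries with it at least 614 TPM. The log2 fold change was 9.32 in MLN vs Ctrl (SE 0.078, 95% interval 9.13 to 9.51, 639-fold, adjusted p = 4.84e-07) and 9.80 in Both vs shARF (SE 0.14, 892-fold, adjusted p = 7.05e-07). These values depend on the pseudocount, and with 1 in place of 0.1 they were 8.39 and 9.06.

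In cells with MLN4924 the shRNA raised MMP3 by 0.92 (SE 0.13, adjusted p = 0.00448). Without the drug it gave 0.44 (95% interval 0.06 to 0.82, adjusted p = 0.0676), which was not called although the 3 shARF libraries were above the 3 Ctrl libraries. The interaction of 0.48 (SE 0.16, adjusted p = 0.0465) was close to the threshold. It was lost in 13 of 19 other settings, among them without Both replicate 2 (0.41, adjusted p = 0.112) and without Ctrl replicate 1 (0.41, adjusted p = 0.101).

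MMP10 had 8.71, 9.70 and 10.5 TPM in Ctrl, 34.7, 37.7 and 35.3 in shARF, 160, 199.8 and 161.5 in MLN and 368, 364 and 297 in Both. The order was Ctrl, shARF, MLN, Both, with no overlap. MLN4924 raised it by 4.15 in PC3 cells (SE 0.11, 17.8-fold, adjusted p = 4.05e-06) and by 3.25 in PC3-shp14ARF cells (SE 0.092, adjusted p = 3.39e-06), and the response differed by −0.91 (SE 0.15, adjusted p = 8.44e-04). The shRNA raised it by 1.89 without the drug (SE 0.080, adjusted p = 1.17e-04) and by 0.98 with it (SE 0.13, adjusted p = 0.00327). Of the 3 Both libraries, replicate 4 was the lowest for MMP1, MMP3 and MMP10 alike.

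MMP7, the matrilysin, a small protease without the hemopexin domain that most other MMPs carry, was low throughout. It had 0.269, 0 and 0.0654 TPM in Ctrl, 1.27, 1.04 and 1.49 in MLN, 0.203, 0.335 and 0.478 in shARF and 0.774, 1.504 and 0.880 in Both. Each library with the drug was above each library without it, and the Ctrl and shARF libraries overlapped. MMP7 was higher in MLN than in Ctrl by 2.89 (SE 0.50, 95% interval 1.67 to 4.10, adjusted p = 0.00299) and higher in Both than in shARF by 1.39 (SE 0.35, adjusted p = 0.015). The first value moved to 1.03 with a pseudocount of 1 and to 4.41 with 0.01. The shRNA gave 1.21 without the drug (adjusted p = 0.138) and −0.28 with it (adjusted p = 0.484), and the interaction was −1.498 (adjusted p = 0.0981), none of which was called. Without Ctrl replicate 1, the highest Ctrl library, shARF vs Ctrl was 1.72 and was called (adjusted p = 0.0326), as was the interaction (−2.01, adjusted p = 0.0156).

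MMP9, the gelatinase that cuts denatured collagen and type IV collagen, was at 0.268, 0.192 and 0.195 TPM in Ctrl, 0.126, 0.322 and 0.387 in MLN, 0.337, 0.133 and 0.272 in shARF and 0, 0 and 0.125 in Both. The Both libraries were the lowest, and the other 3 conditions overlapped. In Both vs shARF MMP9 was lower by 1.36 (SE 0.43, adjusted p = 0.0363). This call was lost in 6 of 12 other settings, among them without shARF replicate 1 (adjusted p = 0.107), without shARF replicate 5 (adjusted p = 0.0983) and without Both replicates 2 or 3 (adjusted p = 0.105 and 0.104), and the value was −3.34 with a pseudocount of 0.01. The value was 0.185 in MLN vs Ctrl (95% interval −0.67 to 1.04, adjusted p = 0.676) and −1.46 in Both vs MLN (adjusted p = 0.0613). The counting error at these levels cannot be given from TPM.

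MMP14, the membrane-bound enzyme that activates pro-MMP2 at the cell surface, was the most abundant MMP of the 7 in Ctrl. It had 709, 606 and 584 TPM in Ctrl, 276, 331 and 319 in MLN, 114, 119.5 and 115 in shARF and 216, 223 and 209 in Both. The order from high to low was Ctrl, MLN, Both, shARF, with no overlap. MLN4924 lowered it by 1.04 in PC3 cells (−1.04, SE 0.11, adjusted p = 3.23e-04) and raised it by 0.89 in PC3-shp14ARF cells (SE 0.040, adjusted p = 1.49e-05). The 2 responses had opposite signs and differed by 1.93 (SE 0.12, adjusted p = 4.94e-07). The shRNA gave −2.44 without the drug (SE 0.080, adjusted p = 6.40e-05) and −0.51 with it (SE 0.082, adjusted p = 0.00667). The gene of its substrate, MMP2, had at most 0.128 TPM in any library and did not reach the filter.

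**Figure D3:**
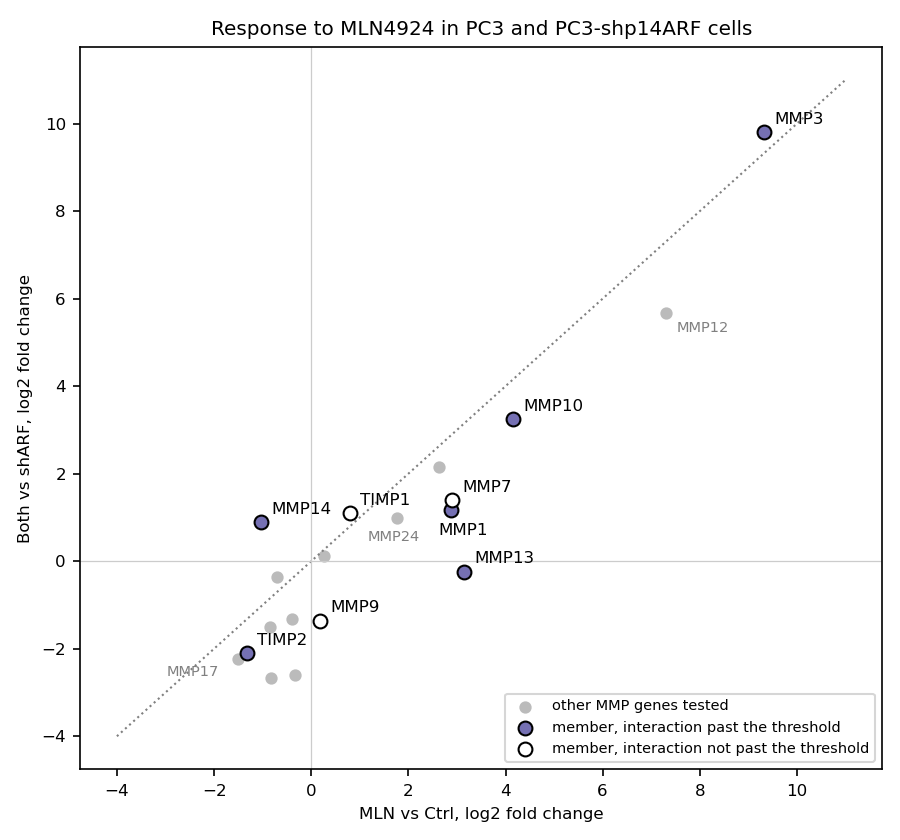
Log2 fold change in MLN vs Ctrl (horizontal axis) against that in Both vs shARF (vertical axis) for the 9 genes tested and, in grey, the other MMP genes tested, where the dotted line marks equal responses and filled points had a called interaction. MMP14 alone among the 9 is called lower on one axis and higher on the other, and MMP13 has a response of 3.14 against −0.24. The grey points include MMP12, MMP20 and MMP28, which reached the filter only through other conditions than Ctrl. Their places are drawn for completeness and are not read as a result. The horizontal place of MMP12 depends on the pseudocount because its Ctrl libraries are at 0.

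TIMP1, a secreted inhibitor of most soluble MMPs, was the most abundant of the 10 genes in each condition. It had 896, 843 and 839.6 TPM in Ctrl, 1023, 1124 and 1122 in shARF, 1295, 1641 and 1548 in MLN and 2493, 2260 and 2253 in Both. The order was Ctrl, shARF, MLN, Both, with no overlap. It rose by 0.79 in MLN vs Ctrl (SE 0.11, adjusted p = 0.00103), by 1.10 in Both vs shARF (SE 0.076, adjusted p = 7.02e-05), by 0.34 in shARF vs Ctrl (SE 0.057, adjusted p = 0.00698) and by 0.65 in Both vs MLN (SE 0.13, adjusted p = 0.0126). The interaction of 0.31 was not called (adjusted p = 0.105), and without Both replicate 2 the call in Both vs MLN was lost (0.60, adjusted p = 0.0537).

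TIMP2, the inhibitor that also forms a complex with MMP14 and pro-MMP2, went the other way. It had 218, 182 and 189.8 TPM in Ctrl, 176, 174 and 185 in shARF, 68.9, 83.7 and 82.9 in MLN and 40.0, 44.2 and 40.7 in Both. Ctrl and shARF overlapped, all MLN libraries were below them and all Both libraries were below those of MLN. MLN4924 gave −1.33 in PC3 cells (SE 0.10, adjusted p = 1.10e-04) and −2.10 in PC3-shp14ARF cells (SE 0.052, adjusted p = 2.24e-06), a difference of −0.78 (SE 0.12, adjusted p = 5.77e-04). The shRNA gave −0.91 with the drug (SE 0.091, adjusted p = 0.0016) and −0.13 without it (95% interval −0.32 to 0.05, adjusted p = 0.209), the latter not called.

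TIMP3, the inhibitor that is held in the matrix, was between 0 and 0.169 TPM in all 12 libraries. It was at 0 in 2 of 3 Ctrl libraries and in 1 of 3 libraries of MLN and of shARF, and the highest values were 0.169 in shARF replicate 3 and 0.165 in Both replicate 3. No test was made on it.

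Summed over the 7 MMP genes, the level was 638 to 758 TPM in Ctrl, 1377 to 1463 in MLN, 581 to 618 in shARF and 2302 to 2830 in Both, given as a description with no test. MMP14 made up 91.5% to 93.6% of this sum in Ctrl, 20% to 22.6% in MLN, 19.1% to 19.9% in shARF and 7.72% to 9.08% in Both. MMP3 made up 0.128% to 0.133% in Ctrl, 42% to 45.9% in MLN, 0.194% to 0.233% in shARF and 43.2% to 47.2% in Both. The sum of the 3 TIMP genes was 1025 to 1113 TPM in Ctrl, 1364 to 1725 in MLN, 1199 to 1307 in shARF and 2294 to 2534 in Both. The ratio of these 7 MMP to these 3 TIMP transcripts was 0.619 to 0.68 in Ctrl, 0.848 to 1.01 in MLN, 0.444 to 0.496 in shARF and 1 to 1.23 in Both. It leaves out the other MMP genes and TIMP4, which had 117 to 135 TPM in Both, so it holds for the picked genes only. These are levels of mRNA, and neither protein nor protease activity was measured in these data.

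The cluster on chromosome 11 spans 435.2 kb from MMP7 to MMP13. The table held 10 genes inside it, and 7 reached the filter of 0.1 TPM. MMP12 and MMP20 reached it only through other conditions than Ctrl, where they were at 0 and 0.0199 TPM, so they were not counted. The 5 that are left are MMP7, MMP10, MMP1, MMP3 and MMP13, whose calls are given above. In MLN vs Ctrl 5 were higher and 0 lower, against 32.2% of all genes higher and 29.4% lower. The counts were 4 and 0 in Both vs shARF (all genes 28.3% and 32.8%) and 3 and 0 in shARF vs Ctrl (21.0% and 20.4%). In Both vs MLN they were 3 and 0 (11.8% and 20.6%). These shares are of all 19932 genes tested, including genes that reached the filter only through other conditions than Ctrl. Within 500 kb on either side 6 genes were tested (YAP1, BIRC3, BIRC2, TMEM123, DCUN1D5 and DYNC2H1). Of these, 2 were higher and 4 were lower in MLN vs Ctrl, and 2 were higher and 3 lower in Both vs shARF. In shARF vs Ctrl 2 were higher and 3 lower, and in Both vs MLN 0 were higher and 1 was lower. DCUN1D5, the nearest gene on the MMP13 side, encodes a factor for the NEDDylation of cullins, and it was higher in MLN than in Ctrl by 0.54 (adjusted p = 0.00103). TMEM123, the nearest gene on the MMP7 side, was lower by 0.59 (−0.59, adjusted p = 7.67e-05). Neighbouring genes are not independent, and the cluster was not compared with other clusters.

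WTAPP1, a pseudogene on the opposite strand, overlaps exons of MMP1, MMP3 and MMP10 in the annotation and was not analysed here. TIMP1 lies within the span of SYN1, on the opposite strand, and SYN1 had condition means of 0.199 to 0.966 TPM, far below the level of TIMP1. SLC12A5-AS1, on the opposite strand over part of MMP9, had condition means of 0.0454 to 0.468 TPM, as low as those of MMP9 itself. It is not stated whether the counting used strand, so reads of such pairs may not be told apart.

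Other genes of the MMP system were taken from lists written from general knowledge, and are given by counts. Of 16 other MMP genes, 10 reached the filter, but MMP12, MMP20 and MMP28 did so only through other conditions than Ctrl and were left out of the counts. Of the 7 others, 1 was higher and 3 were lower in MLN vs Ctrl, against 32.2% and 29.4% of all genes tested. In Both vs shARF 1 was higher and 5 were lower, against 28.3% and 32.8%. The counts of this list and of the lists below are descriptions and were not tested against the shares of all genes. MMP12, the macrophage elastase, was listed at 0 in all Ctrl libraries, at 15.8, 15.3 and 15.9 TPM in MLN, at 0.084, 0.249 and 0.169 in shARF and at 14.9, 13.8 and 10.8 in Both, given with no fold and no test. The membrane-type MMP24 rose from 10.1 to 13.2 TPM in Ctrl to 33.7 to 40.5 in MLN (1.76, adjusted p = 8.90e-05). MMP17 was lower in MLN than in Ctrl (−1.51, adjusted p = 3.86e-04), as was MMP16 (−0.70, adjusted p = 9.11e-04). In the interaction 0 of the 7 were higher and 4 were lower, against 11.2% and 17.1% of all genes.

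Of 14 other inhibitors and surface regulators, 12 were tested, with 4 higher and 6 lower in MLN vs Ctrl and 4 higher and 7 lower in Both vs shARF. The shares of all genes were 32.2% and 29.4% in the first comparison and 28.3% and 32.8% in the second. TIMP4, the remaining TIMP, had 12.8 to 15.1 TPM in Ctrl, 59.7 to 73.8 in MLN, 9.45 to 10.9 in shARF and 117 to 135 in Both. It rose by 2.28 with MLN4924 in PC3 cells (SE 0.10, adjusted p = 1.58e-05) and by 3.58 in PC3-shp14ARF cells (SE 0.080, adjusted p = 1.87e-06), and the interaction was 1.30 (adjusted p = 3.04e-05). TFPI2, a secreted inhibitor of serine proteases, rose from 138 to 158 TPM in Ctrl to 623 to 695 in MLN (2.20, adjusted p = 7.71e-06) and from 51.2 to 58.9 in shARF to 700.1 to 833 in Both (3.79, adjusted p = 1.94e-06). SPOCK1, a secreted proteoglycan, was lower in MLN than in Ctrl (−1.79, adjusted p = 7.98e-06), and so was SERPINE2, an inhibitor of serine proteases (−1.19, adjusted p = 1.81e-05).

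Of 14 proteases and receptors that activate proenzymes, 8 were tested, with 3 higher and 2 lower in MLN vs Ctrl and the same counts in Both vs shARF. The shares of all genes were 32.2% and 29.4% in the first comparison and 28.3% and 32.8% in the second. FURIN, the convertase that removes the propeptide of MMP14, had 20.9 to 25.4 TPM in Ctrl and 31.6 to 42.2 in MLN (0.75, adjusted p = 0.00367), and 31.3 to 35.0 in shARF and 35.4 to 38.2 in Both (0.14, adjusted p = 0.0873). The convertase PCSK5 rose by 1.70 in PC3 cells (adjusted p = 0.00114) and PCSK6 fell by 1.55 there (−1.55, adjusted p = 1.83e-04). PLAUR, the urokinase receptor, was not called in MLN vs Ctrl (0.23, adjusted p = 0.0516) and was higher in Both than in shARF (1.46, adjusted p = 9.54e-06).

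Of 16 ADAM and ADAMTS genes, which encode relatives that some TIMPs also inhibit, 11 reached the filter, 1 of them (ADAMTS4) only through other conditions than Ctrl. Of the 10 others 3 were higher and 6 lower in MLN vs Ctrl, with the same counts in Both vs shARF. The shares of all genes were 32.2% and 29.4% in the first comparison and 28.3% and 32.8% in the second. ADAM17, the sheddase of TNF, had 29.9 to 30.4 TPM in Ctrl, 58.7 to 59.1 in MLN, 25.0 to 25.9 in shARF and 77.6 to 90.4 in Both. It rose by 0.96 in PC3 cells (SE 0.036, adjusted p = 9.82e-06) and by 1.69 in PC3-shp14ARF cells (SE 0.064, adjusted p = 8.72e-06). ADAMTS6 was higher in MLN than in Ctrl by 3.47 (adjusted p = 1.07e-05), ADAM12 was lower by 2.51 (−2.51, adjusted p = 1.26e-05) and ADAM10 was lower by 1.21 (−1.21, adjusted p = 1.33e-05). In the interaction 6 of the 10 were higher and 0 were lower, against 11.2% and 17.1% of all genes.

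All 16 AP-1, ETS and RUNX factors, which are known regulators of MMP genes, were tested. In MLN vs Ctrl 7 were higher and 6 lower, against 32.2% and 29.4% of all genes. The counts were 12 and 3 in Both vs shARF (all genes 28.3% and 32.8%) and 2 and 8 in shARF vs Ctrl (21.0% and 20.4%). FOS, an AP-1 subunit, had 0.282 to 0.462 TPM in Ctrl, 3.56 to 5.92 in MLN, 0.288 to 0.49 in shARF and 1.27 to 1.76 in Both. It was higher in MLN than in Ctrl by 3.21 (SE 0.26, adjusted p = 1.27e-04) and in Both than in shARF by 1.68 (SE 0.23, adjusted p = 0.00126). FOSB rose by 2.69 in PC3 cells (adjusted p = 2.02e-05) and by 2.03 in PC3-shp14ARF cells (adjusted p = 8.28e-05). Among the more abundant AP-1 genes, FOSL1, JUNB and JUND were higher in MLN than in Ctrl (0.951, 0.904 and 1.143). FOSL2 was lower there (−0.325) and JUN was not called (0.003). In shARF vs Ctrl JUN and FOSL2 were lower (−0.870 and −0.696), JUND was higher (0.717) and the other AP-1 genes were not called. ETV1 fell from 44.6 to 48.9 TPM in Ctrl to 14.9 to 16.5 in MLN (−1.55, adjusted p = 1.14e-05), and ELF3 fell from 24.4 to 29.5 TPM to 6.28 to 8.18 (−1.88, adjusted p = 5.21e-05). The part of any of these factors in the levels of the MMP genes was not tested.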

How the data were processed

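The authors isolated total RNA on day 3, trimmed adapters, mapped the reads to hg38 and quantified genes on an Ensembl annotation of GRCh38 in CLC Genomics Workbench. Library layout and strand are not given in the sources used here. The deposited values are TPM for 43622 genes in 12 libraries, with no filter and no read counts, and each column sums to 1000000. The series text speaks of a knockout and of another unit of dose, whereas the sample labels give an shRNA and 1 µM, which were followed here. The 4 samples hold 3 library columns each, assigned by condition name.

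With limma 3.58.1 in R 4.3.3 (lmFit, eBayes with trend), log2(TPM + 0.1) was fitted for 19932 genes averaging 0.1 TPM or more. Each pairwise comparison used its 6 libraries and the interaction all 12, and p-values were adjusted over all these genes by Benjamini-Hochberg. In counts of other lists, genes under 0.1 TPM in Ctrl were left out, a rule chosen after seeing the data. The step was checked on simulated data, in which the changed genes averaged at least 1 TPM and changed by 2 on the log2 scale. That check does not cover genes as low as MMP7 and MMP9, or smaller changes. The 10 genes and the other lists were chosen with earlier results of these data known. From each other list up to 4 genes averaging 1 TPM or more were named, by the smallest adjusted p in MLN vs Ctrl. DCN, COL1A1, COL1A2, COL3A1, PDGFRA, MS4A1, CD3E, PTPRC, VWF, CDH5, CD68, LYZ, KDR, PECAM1, YAP1, BIRC3, BIRC2, TMEM123, DCUN1D5, DYNC2H1 and the overlapping genes were named as markers or neighbours. MMP2 was named as the substrate of MMP14, and the remaining AP-1 genes were named beside FOS and FOSB. One marker list is not reported here. Alternatives were pseudocounts of 1 and 0.01, filters at 1 TPM or none, scaling by the median of ratios, all 12 libraries fitted together, no trend, a replicate block and each library left out. Coordinates and exons are from GENCODE on GRCh38, another release than the authors' annotation. The figures were drawn with matplotlib 3.10.9.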

Additional observations from a re-analysis of the deposited data

Results flagged for a closer look

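The response to MLN4924 differed between PC3 and PC3-shp14ARF cells, by the test of the interaction over the 12 libraries, for 6 of the 9 genes tested. Of all genes tested, 11.2% were called with a higher and 17.1% with a lower response in PC3-shp14ARF cells. The difference was −1.72 for MMP1, −0.91 for MMP10, −3.38 for MMP13 and −0.78 for TIMP2, where the log2 fold change was lower in PC3-shp14ARF cells, and 1.93 for MMP14 and 0.48 for MMP3, where it was higher. For TIMP2 the lower value is a larger fall, and for MMP14 the signs of the responses were opposite. The MMP3 value was lost in 13 of 19 alternatives, with adjusted p between 0.00348 and 0.112. No alternative ended the other 5 calls.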

How the results depend on the processing

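Over the alternatives, 603 of 647 values of single genes kept their direction and their side of the threshold, 13 gained a call, 27 lost one and 4 changed sign, all of these for MMP9. MMP9 was −0.085 in MLN vs Ctrl with a replicate block and −0.034 without MLN replicate 5, and −0.046 in shARF vs Ctrl with the block and −0.104 without shARF replicate 1; the highest values without 1 library were 0.519 and 0.349. Deviations of same-numbered libraries correlated with r between −0.046 and 0.022, and those of differently numbered libraries with r between −0.046 and 0.041. Values this near 0 over all genes show no pairing by number, but they cannot exclude a shared culture or batch. With the number as a block, 0 of the 9 genes were called in shARF vs Ctrl by limma (5 without the block; adjusted p of MMP1, MMP10, MMP13 and MMP14 0.0607; 4 of the 9 at an unadjusted p below 0.05), 6 in MLN vs Ctrl (8 without it) and 5 in the interaction (6 without it). With so few libraries the block leaves little from which to estimate the spread. Over all genes too, calls in MLN vs Ctrl fell from 12283 to 5708 with it. Over all alternatives the shARF vs Ctrl value stayed between 3.358 and 3.457 for MMP1 and between 1.794 and 1.952 for MMP10. It stayed between 3.405 and 3.596 for MMP13 and between −2.495 and −2.355 for MMP14. Both vs MLN and Both vs shARF share 1 number each, so no block could be used there. Without 1 library 8 of the 9 genes were called in MLN vs Ctrl, 5 to 6 in shARF vs Ctrl and 5 to 7 in Both vs MLN. The counts were 7 to 8 in Both vs shARF and 5 to 7 in the interaction. Among all genes tested, calls in MLN vs Ctrl were 11116 to 11666 without 1 library, against 12283 with all libraries. They were 6479 to 7740 against 8251 in shARF vs Ctrl and 4005 to 5731 against 6464 in Both vs MLN. In Both vs shARF they were 10940 to 11685 against 12166. Depth is not known from TPM, so the counting error of MMP7, MMP9 and TIMP3, all at or below 1.504 TPM, could not be given.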

Other observations

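For each of the 7 genes averaging 1 TPM or more, the pattern over the 12 libraries was compared with that of 14656 other genes, as the root mean square difference of log2(TPM + 0.1) after centring each gene, a description with no test. The genes nearest to MMP1 were CRYAB (0.363) and ARRDC4 (0.441), whose means in Ctrl, MLN, shARF and Both were 0.738, 4.01, 4.62 and 11.8 TPM for CRYAB and 1.55, 5.20, 11.5 and 23.5 TPM for ARRDC4. Nearest to MMP3 was AKR1C1 (0.437), with 1.25, 484, 1.51 and 906 TPM, and then CYP4F11 (0.474), which was listed at 0 in Ctrl and had 138 TPM in Both. GCNT3 (0.255) and SPINK13 (0.373) were nearest to MMP10, and COL3A1 (0.359) and METTL7A (0.423) to MMP13. The pattern of MMP14, with its lowest level in shARF, was closest in NECAB2 (0.182) and SEMA3C (0.188), the latter with 40.6, 19.5, 5.65 and 12.4 TPM. The nearest genes to TIMP1 were CTSL (0.107), which encodes the lysosomal protease cathepsin L, and TAF5 (0.110), and the nearest to TIMP2 were SLC25A23 (0.089) and CNTNAP1 (0.092). Among the 7 genes themselves, MMP1 and MMP13 were the closest pair (0.621) and MMP3 and TIMP2 the farthest (5.68). These distances grow with the size of a gene's own changes, so they do not rank one gene's neighbours against another's.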
